A study of Mus musculus with 2 samples.

Results

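Runs of PDGFRα-only peaks are stretches of a chromosome in which 3 or more open chromatin sites in a row belong to the PDGFRα list and none to the CD137 list. The deposited lists of unique peaks of both libraries were pooled and sorted by chromosome and centre, and consecutive PDGFRα peaks were joined when their centres lay at most 50 kb apart with no CD137 peak between them. By this rule 894 of 8002 PDGFRα peaks (11.2%) formed 270 runs, out of 22485 peaks in both lists. The peaks came from ATAC-seq, in which a transposase cuts accessible DNA, on adipose progenitors of C57BL/6 mice with 1 library for each group. One group was the CD137+ subgroup and the other the PDGFRα+ (CD140+) subgroup, both separated with magnetic beads from SAT or VAT, differentiated with an adipogenic cocktail and then given the glucocorticoid dexamethasone at 1 µM. Both groups therefore carry the drug and the cocktail. The sources used here do not state which depot gave which cells, the number of mice or their age.

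The members were chosen by the peaks' positions and by the list each peak stands in, so the number, size and spacing of the runs and the absence of CD137 peaks inside them are descriptions. Each group is a single library, so differences between them have no check by replicates and no test was run. Heights and read numbers were not used here, and depth is unknown. A PDGFRα-only run is thus a stretch where the one list has neighbouring entries and the other has none, and a locus outside the runs can be accessible in both libraries alike. The labels' extraction text describes embryos rather than adipose tissue. Of the marker genes themselves, Pdgfra had 0 peaks in each list, and Tnfrsf9, which encodes CD137, had 1 PDGFRα peak and 0 CD137 peaks, so peaks at these genes do not check the labels.

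Open chromatin outside promoters often marks enhancers, stretches of DNA where transcription factors bind and raise the activity of a gene that may lie far away. Genes that define a cell type are commonly served by several enhancers in a row, inside their introns or in the gene-free DNA beside them. PDGFRα, a receptor tyrosine kinase, marks stromal cells of fat from which white adipocytes and matrix-producing fibroblasts can form, while CD137 marks progenitors of beige adipocytes.

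Sequences of a miRNA pair and of promoters lay at some of these loci and are given first as examples. They are not typical, since 23 of the 270 runs had a member over a gene start and 10 held a miRNA gene. One run of 3 peaks on chromosome 6 surrounded the genes of miR-29a and miR-29b-1, which are transcribed together and are known to lower collagens and other matrix proteins. The mature 3p strands from RefSeq (GRCm38.p6, chr6:31062673-31062694 and chr6:31063025-31063047, minus strand) share the seed AGCACCA, bases 2 to 8, shown in capitals.
mmu-miR-29a-3p: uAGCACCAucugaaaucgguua
mmu-miR-29b-3p: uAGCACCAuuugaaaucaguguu

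Among promoters, 23 members covered the start of a protein-coding gene listed in the RefSeq promoter table. The 250 bases before the start are shown for 5 of them (GRCm38.p6, 5′ to 3′), namely the Wnt agonist gene Rspo1, the laminin chain gene Lamb3, the lysophosphatidic acid receptor gene Lpar3, the junctophilin gene Jph2 and the tumour necrosis factor receptor gene Tnfrsf1a, which held the widest member. Capitals mark matches to the motifs searched, given further on.
Rspo1, chr4:124986180-124986429, plus strand: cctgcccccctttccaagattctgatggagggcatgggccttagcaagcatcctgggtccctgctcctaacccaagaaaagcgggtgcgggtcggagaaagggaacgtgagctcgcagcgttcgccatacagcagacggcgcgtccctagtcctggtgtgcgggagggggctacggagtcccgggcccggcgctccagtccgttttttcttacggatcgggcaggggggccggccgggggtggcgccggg
Lamb3, chr1:193301744-193301993, plus strand: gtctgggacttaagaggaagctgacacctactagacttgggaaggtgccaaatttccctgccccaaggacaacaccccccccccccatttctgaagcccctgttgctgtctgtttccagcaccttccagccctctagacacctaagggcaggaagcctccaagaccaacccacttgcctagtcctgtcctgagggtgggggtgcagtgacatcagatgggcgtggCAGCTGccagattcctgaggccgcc
Lpar3, chr3:146220711-146220960, plus strand: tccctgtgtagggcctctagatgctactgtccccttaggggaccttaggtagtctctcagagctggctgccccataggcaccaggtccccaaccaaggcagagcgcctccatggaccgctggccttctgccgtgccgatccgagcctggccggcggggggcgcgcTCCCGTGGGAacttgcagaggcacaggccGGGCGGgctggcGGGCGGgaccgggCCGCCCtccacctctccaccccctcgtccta
Jph2, chr2:163397974-163398223, minus strand: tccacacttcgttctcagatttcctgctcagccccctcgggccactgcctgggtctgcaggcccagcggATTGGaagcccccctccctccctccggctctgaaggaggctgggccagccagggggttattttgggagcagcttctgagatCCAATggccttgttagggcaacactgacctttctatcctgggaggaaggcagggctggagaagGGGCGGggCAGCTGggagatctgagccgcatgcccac
Tnfrsf1a, chr6:125349473-125349722, plus strand: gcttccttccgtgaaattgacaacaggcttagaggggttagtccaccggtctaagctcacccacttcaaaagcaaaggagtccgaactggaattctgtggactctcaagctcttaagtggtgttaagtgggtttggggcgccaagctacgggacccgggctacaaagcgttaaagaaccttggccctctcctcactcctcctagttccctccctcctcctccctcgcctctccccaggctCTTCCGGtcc
The genes and the miRNA pair shown here were picked after their values were seen. Rspo1 held no match to any of the 12 motifs, although 22 CpG dinucleotides lay in its 250 bases, against 2 at Lamb3 and 9 at Tnfrsf1a. Lamb3 held 1 E-box (CAGCTG) close to its listed start, and Jph2 held 1 E-box, 1 SP1 match and 2 CCAAT boxes. The listed start of Lamb3, at 193301994, lies inside the gene, which begins at 193294353 of chromosome 1. Lpar3 held the EBF motif and 3 SP1 matches, and Tnfrsf1a held 1 ETS match.

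Most runs were short. Of the 270 runs, 212 (78.5%) had 3 members, 43 had 4 and 15 had 5 or more, and the longest had 9. Their spans ran from 11.4 to 195.7 kb with a median of 50.1 kb (interquartile range 35.5 to 65.5 kb), and they covered 14381 kb in all. Neighbouring centres inside a run were 1.18 to 49.96 kb apart, with a median of 20.7 kb. Of the 624 gaps, 34 were longer than 45 kb, in 34 runs, and 12 further PDGFRα peaks lay just outside, 50 to 55 kb from a run with no CD137 peak between; the nearest was 50.6 kb away. Another 969 pairs of PDGFRα peaks met the distance rule but stopped at 2 peaks.

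The CD137 list, read by the same rule, gave 884 runs with 3112 members, 21.5% of its 14483 peaks. Its largest run had 11 members. That list is longer, and a longer list both builds more runs of its own and breaks up more runs of the other. When the CD137 list was reduced to its 8002 widest peaks, the PDGFRα list gave 304 runs with 1016 members (12.7% of its peaks) and the CD137 list 283 runs with 951 members (11.9%). The largest PDGFRα run again had 9 members, and the largest CD137 run had 8. Spacing inside runs was close in both lists as deposited, with a median of 20.7 kb for PDGFRα and 20.4 kb for CD137.

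**Figure D1:**
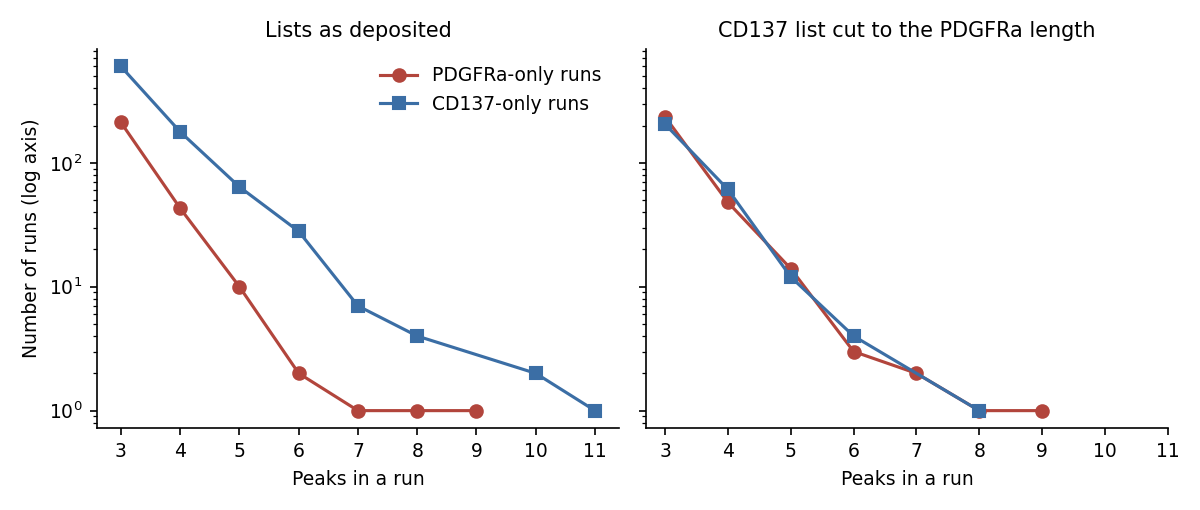
Number of runs (log axis) against the number of peaks in a run, for PDGFRα-only runs (circles) and CD137-only runs (squares); left, the lists as deposited, right, with the CD137 list reduced to its 8002 widest peaks. As deposited, CD137 runs are more frequent at every size from 3 to 8 (600 against 212 at size 3), whereas with equal lists the curves lie close together (205 CD137 against 235 PDGFRα runs at size 3).

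Many runs were bordered by CD137 peaks at close range. In 102 runs the nearest CD137 peak was more than 50 kb away on both sides, in 131 on one side, and in 37 runs CD137 peaks lay within 50 kb on both sides. The nearer CD137 peak was at a median distance of 35.4 kb (interquartile range 15.0 to 84.4 kb). The run farthest from CD137 peaks on both sides lay at 142039767 to 142058854 of chromosome 6, beside Slco1a6, an organic anion transporter gene, with CD137 peaks 659 kb and 602 kb away. After it came runs at the muscarinic receptor gene Chrm3 (559.5 kb and 653 kb) and at Shank3, a scaffold gene of synapses (439.6 kb and 535 kb). At the other end, a run of 3 in Myo3b, an unconventional myosin gene, ended 1.22 kb from a CD137 peak. Chrm3, Shank3 and Myo3b were picked after their values were seen.

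**Figure D2:**
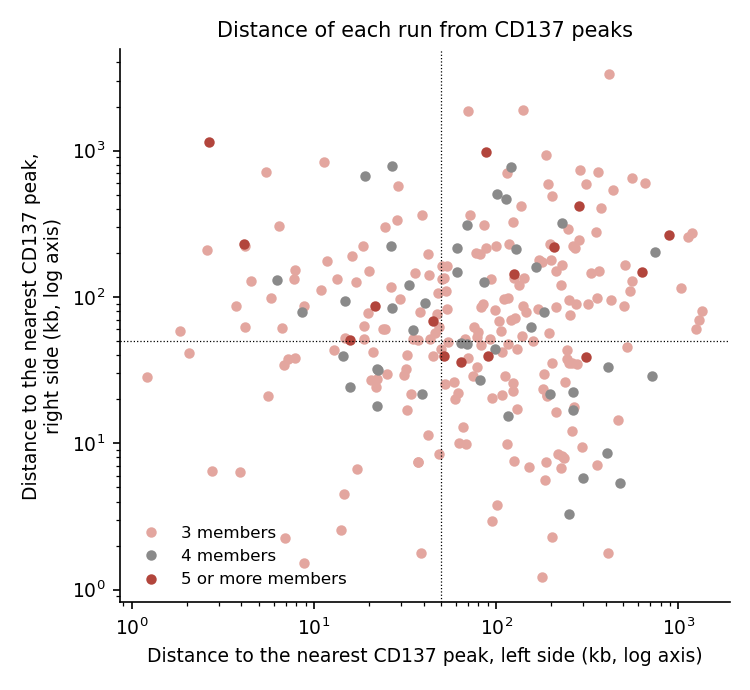
Distance in kb (log axes) from the first and last centre of each of the 270 runs to the nearest CD137 peak on the left and right; dotted lines mark 50 kb and colours give the run size. Runs fall on every side of these lines, with 102 beyond 50 kb on both sides and 37 within it on both.

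The run with the most members lay inside Celf4, a gene for an RNA-binding splicing regulator best known from neurons. All 9 peaks were intronic and carried the same Ensembl ID, ENSMUSG00000024268, between 25540088 and 25727487 of chromosome 18 (mm10). They were 944 to 1698 bp wide and 21.7 kb apart at the median. The gene had 9 PDGFRα peaks and 1 CD137 peak, which was 2.66 kb from the first member, while on the other side the next CD137 peak was 1142 kb away.

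The next run lay in DNA without a protein-coding gene. Of its 8 members 7 were intergenic and 1 was classed up5k of an Ensembl ID outside the protein-coding RefSeq genes. They stood between 88928677 and 89041751 of chromosome 1, from 28.9 to 141 kb from Sh3bp4, a regulator of endocytosis, with Arl4c, a small GTPase gene, 226 kb off on the other side. CD137 peaks stood 90.6 kb before and 39.5 kb after this run. A run of 7 began in Adamts16, a secreted metalloprotease gene, and continued for 176 kb into gene-free DNA towards Irx1, a homeobox gene 939.8 kb farther on (chromosome 13, 70822737 to 71018407). One member was intronic and 6 were intergenic, and the sixth of the row was 3371 bp wide, one of 6 members of 3 kb or more.

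A size of 6 members was reached by 2 runs. One lay between Ywhaz, a 14-3-3 adaptor gene, and Zfp706 on chromosome 15 (36845320 to 36925211), with no protein-coding RefSeq gene within 5 kb, although 3 members carried an Ensembl ID. The other began over the start of an uncharacterised gene on chromosome 12 (105453219 to 105558161) and ended 5.01 kb from Bdkrb2, the bradykinin B2 receptor gene. Its nearest CD137 peaks were 634 kb and 149 kb away.

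Runs of 5 were found inside and beside genes. Of the 10 runs of this size, those with the shortest spans are given, up to 12 runs in all with the larger ones. In Itga1, the α chain of a collagen-binding integrin, 3 intronic and 2 exonic members lay between 114963983 and 115032054 of chromosome 13, and the gene had 6 PDGFRα peaks and no CD137 peak. Nav2, a cytoskeletal gene induced by retinoic acid, held all 5 members of a run on chromosome 7 (49287633 to 49343665). Mxra7, a matrix remodelling associated gene of only 24.7 kb, had 4 members, with the fifth beside Jmjd6, in the most compact run of this size (36.3 kb; chromosome 11, 116800877 to 116837224). Cdk8, the kinase of the Mediator complex, had 3 members in or just past the gene and 2 more up to 22.0 kb beyond it. Ak5, an adenylate kinase gene, had 3, followed by 2 in the DNA towards Pigk. Trib1, a pseudokinase gene that promotes the breakdown of C/EBPα, had 5 members in the DNA 60.1 to 142 kb from it. The remaining run among the first 12 stood alone on chromosome 16 (8170822 to 8229236), 180 kb from Tmem114, with CD137 peaks 892 kb and 266 kb away.

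**Figure D3:**
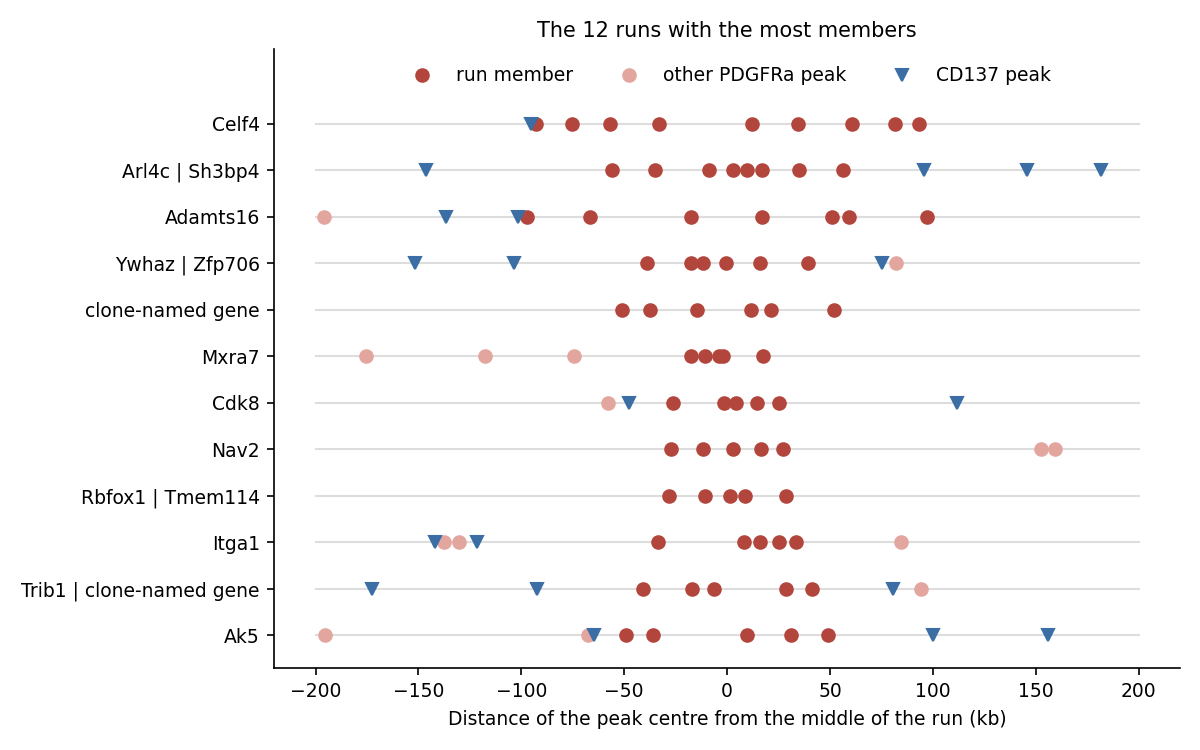
Positions of peak centres around 12 runs, as distance in kb from the middle of each run. They are all runs of 6 or more members and, among runs of 5, those with the shortest spans. Runs are named by the gene with most members or by the flanking genes (left | right). Dark circles are run members, pale circles other PDGFRα peaks and triangles CD137 peaks; CD137 peaks stand 2.66 and 4.14 kb from the first members at Celf4 and Adamts16, whereas at Mxra7 and Nav2 the nearest are 209 and 284 kb away.

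Runs also followed one another. In 5 places successive runs had no CD137 peak between them, and 2 of these places joined 3 runs around Wt1, a transcription factor gene of mesothelium and visceral fat progenitors. Between CD137 peaks 382 kb apart on chromosome 2, all 9 PDGFRα peaks were run members. The first run of 3 lay at 105022554 to 105041861, beside Eif3m. The second, at 105111386 to 105147981, had 1 peak 14.0 kb before Wt1, 1 of 3551 bp over its beginning (105125051 to 105128602) and 1 in an intron. The third lay at 105206391 to 105227265 by Them7. From the last peak centre of one run to the first of the next were 71.4 and 60.1 kb, so this row of 9 was cut only by the distance limit. Wt1 had 2 PDGFRα and 0 CD137 peaks.

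A similar row lay at Nav2, whose run of 5 was followed 216 kb on by a run of 3 at the far end of the gene and at Dbx1, a homeobox gene. Between the CD137 peaks that border them, 758 kb apart, stood 10 PDGFRα peaks, 8 of them run members. The Lpp row joined a run of 3 in the DNA between Bcl6 and Lpp to a run of 4 inside Lpp, a focal adhesion gene, with 53.0 kb between the centres of their facing end peaks. Besides Nav2, the genes Kif6, Pde10a and Egfr had members of 2 runs each.

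By gene, 545 of the 894 members (61.0%, Wilson 95% interval 57.7 to 64.1%) lay at a protein-coding gene, meaning inside it or up to 5 kb away. Among other PDGFRα peaks the share was 57.6%. The difference of 3.32 percentage points had a Newcombe 95% interval that includes 0 (-0.112 to 6.67). Of 21887 protein-coding genes, 274 (1.25%) had at least 1 member. A single gene held all members in 72 runs (26.7%), several genes in 44, and in 87 runs some members lay away from genes. The other 67 runs (24.8%) had no member within 5 kb of one. In CD137-only runs, 32.9% had all members at a single gene and 32.4% had no member at a gene. Of the 274 genes, 160 (58.4%) had no CD137 peak, against 52.9% of the 3326 genes with any PDGFRα peak, 52.4% of the 3052 of these without a run member and 80% of all protein-coding genes; the rule, which bars CD137 peaks inside a run, bears on this share. Genes with a run member were long, with a median of 60.8 kb against 17.2 kb for all protein-coding genes, but not longer than genes with other PDGFRα peaks (65.5 kb). The 85 genes with 3 or more members (0.388% of all) had a median length of 206 kb.

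Of all protein-coding genes, 19 (0.0868%) had 4 or more members, and 18 of these were longer than 100 kb, Mxra7 being the exception. Signalling enzymes among them were Pde10a, with 5 members, and Pde4d, with 4, both of which break down cyclic nucleotides, the stress kinase gene Map4k3 (4) and the exchange factor gene Rapgef5 (4). Genes of cell shape and adhesion were Nav2 (7), Itga1 (5), Lpp (4), Shroom3 (4), a regulator of apical constriction, Epb41l2 (4), a membrane skeleton gene, and Arhgap42 (4). The remaining genes were Celf4 (9), the kinesin gene Kif6 (7), the furry homologue gene Fry (4), Nol4l (4), Nkain3 (4), the matrix protein gene Adamtsl1 (4), Mxra7 (4), the potassium channel gene Kcnma1 (4) and the clock-linked nuclear receptor gene Rora (4).

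The CD137 side of these genes varied. Itga1, Epb41l2, Mxra7 and Nkain3 had no CD137 peak, and Celf4, Nav2, Kif6, Pde10a, Nol4l, Shroom3, Fry, Arhgap42, Rapgef5 and Map4k3 had 1 each. Rora and Kcnma1 had 4 CD137 against 7 PDGFRα peaks each. Pde4d had 11 CD137 and 9 PDGFRα peaks, Adamtsl1 had 10 and 9, and Lpp had 8 and 6, so a run inside a long gene can stand beside many CD137 peaks elsewhere in that gene. Among the 85 genes with 3 or more members, 24 had no CD137 peak and 12 had more CD137 than PDGFRα peaks. By comparison, 160 (58.4%) of all 274 genes with a member had no CD137 peak. The 85 genes were long (median 206 kb), and the part of length in these counts was not tested. Of the 274 genes, 17 also had members of CD137-only runs, which is 6.20% of them and 2.34% of the 728 genes with CD137 run members. Over all protein-coding genes these shares were 3.33% and 1.25%, so the overlap was above that background. Genes with a PDGFRα run member were also longer, with a median of 60.8 kb against 17.2 kb for all. The part of gene length in this overlap was not tested.

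**Figure D4:**
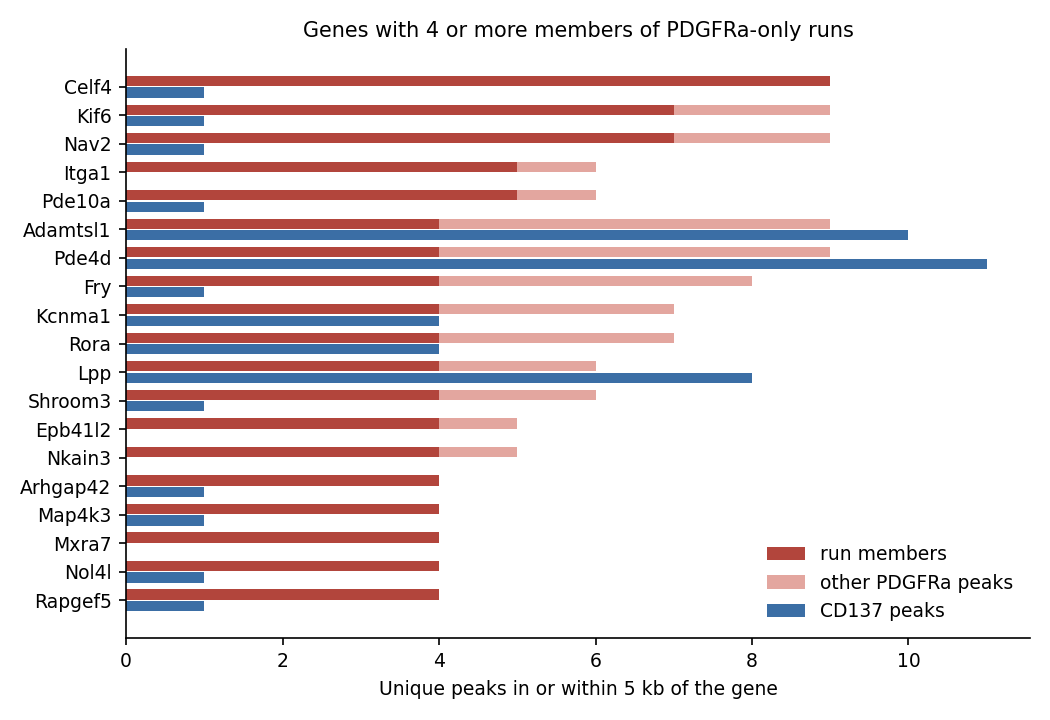
Unique peaks in or within 5 kb of the 19 genes with 4 or more run members; dark bars are run members, pale extensions other PDGFRα peaks and lower bars CD137 peaks. Celf4 has 9 members and 1 CD137 peak, whereas Pde4d, Adamtsl1 and Lpp have more CD137 than PDGFRα peaks.

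In place class, members were less often intergenic than the other 7108 PDGFRα peaks. Intergenic peaks were 33.4% of members and 39.3% of the others, a difference of -5.86 percentage points (Newcombe 95% interval -9.09 to -2.51). The intronic share was 38.4% among members against 33.0%, higher by 5.38 points (2.06 to 8.78), and exons held 10.6% and 8.93%, with an interval that includes 0 (-0.284 to 3.98). Another comparison was with the 2967 PDGFRα peaks in mixed clusters, which met the same gap and size limits but include CD137 peaks. Against these the intergenic difference was -5.42 points (-8.91 to -1.81). These intervals cover counting error only and treat the peaks of a run as separate, although they share a locus. The intergenic difference was 3.69 points, the opposite direction, when only the peaks above the median width of each list were used, with an interval that includes 0 (-2.70 to 10.5).

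The classes up5k and down5k did not follow the direction of transcription. Of 415 peaks of both lists that covered starts on the plus strand alone, 318 were classed up5k and 9 down5k. Of 394 that covered starts on the minus strand alone, 93 were classed up5k and 234 down5k. Among run members 10 of 11 plus-strand starts were classed up5k, and 6 of 12 minus-strand starts down5k, among them those of Sox13, Tfpi, Jph2, Ryr1, Dennd5a and Kcng4. Both classes were therefore joined as peaks by a gene end, which made up 17.6% of members and 18.8% of the others, a difference of -1.21 points (-3.74 to 1.57).

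Promoters were a small share of the members. Of 866 members on the 20 chromosomes with promoter entries, 23 (2.66%) covered a listed start, against 4.20% of other PDGFRα peaks and 4.02% of all PDGFRα peaks, a difference of -1.54 points (-2.55 to -0.167). The interval included 0 with a gap limit of 25 kb (-2.84 to 1.03), with gaps measured between peak edges (-2.38 to 0.0534) and against mixed clusters (-2.53 to 0.105), and with a limit of 100 kb the difference was -0.240 points (-1.21 to 0.880). The table lists a start for 79.9% of the protein-coding genes, so some starts were not seen. Members lay a median of 49.3 kb from the nearest listed start (interquartile range 16.9 to 127 kb), other PDGFRα peaks 46.7 kb (15.6 to 140 kb). In CD137-only runs 2.73% of members covered a start, and the difference of -0.0693 points (-1.16 to 1.33) includes 0. Members of CD137-only runs were intergenic in 43.6%, and the difference, PDGFRα-only minus CD137-only runs, was -10.2 points (-13.6 to -6.56). Each list comes from a single library, and these intervals cover counting error only and treat the peaks of a run as separate. The intergenic share of CD137 peaks outside runs is not given here. The part of the whole lists in this difference was not tested.

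**Figure D5:**
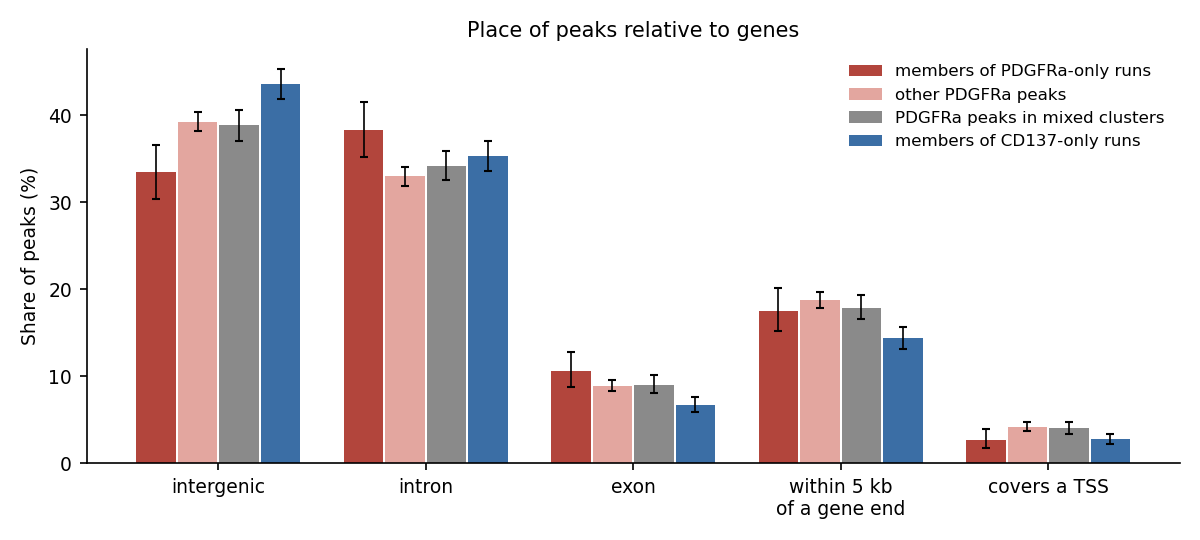
Share of peaks (%) in each place class and over a listed transcription start (TSS), with Wilson 95% intervals as bars, for members of PDGFRα-only runs, other PDGFRα peaks, PDGFRα peaks in mixed clusters and members of CD137-only runs. Members are the lowest in the intergenic class (33.4%) and the highest in introns (38.4%).

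Width, which the rule did not use, had a median 37 bp larger in the runs than in other PDGFRα peaks. Members had a median of 1271 bp (95% interval of the median 1237 to 1292) and other PDGFRα peaks 1234 bp (1225 to 1241). Peaks in mixed clusters had 1260 bp (1247 to 1270), within the members' interval. The median difference was 16 bp with a gap limit of 25 kb (-40 to 70), 20 bp for peaks above the median width (-12 to 92) and 41.5 bp for runs of 4 or more (-13 to 97), and these intervals include 0. Peaks of 2 kb or more were 7.61% of members and 5.26% of the others, a difference of 2.34 points (0.691 to 4.33). The 6 members of 3 kb or more lay over Tnfrsf1a (4724 bp), over Hes1, a repressor acting downstream of Notch (3596 bp), over the beginning of Wt1 (3551 bp), in an exon of the hexokinase gene Hk2 (3395 bp), beyond Adamts16 (3371 bp) and over the start of the potassium channel gene Kcng4 (3218 bp). These genes were named for their widths. The Hes1 run was among the most crowded, with 3 peaks in 12.5 kb, 2 of them within 5 kb of the gene, and a CD137 peak lay 2.07 kb from its first member. Only the run inside Chchd3, a mitochondrial cristae gene, was denser, with 3 intronic peaks in 11.4 kb, and that gene also had 5 CD137 peaks. At the miR-29 genes all 3 peaks exceeded 2 kb (2146, 2739 and 2283 bp), and the nearest centre was 3.77 kb from the miR-29a hairpin and 3.42 kb from that of miR-29b-1. That run lay between Klf14, a regulator of fat storage genes, 78.0 kb away and Mkln1, and CD137 peaks stood 31.3 and 29.4 kb to its sides. In all, 11 of 1005 miRNA genes (1.09%) lay inside 10 runs.

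Genes of the adipose and signalling lists were counted next, against the 1.25% of all genes that had a run member. The adipocyte list (30 genes), the thermogenic and beige list (27), the T-box, forkhead and SOX list (34), the Hippo and TEAD list (31) and the mural and smooth muscle list (14) had 0, and 12, 6, 6, 10 and 4 of their genes had some PDGFRα peak, as did 15.2% of all genes. At 1.25%, a list of this size can hold 0 such genes without standing apart. No list had a median above 0 members, which was also the median of all genes. One of 23 stromal progenitor genes, Prrx1, a mesenchymal homeobox gene, had 2 members and no CD137 peak, at 163242919 to 163244202 and 163291627 to 163292761 of chromosome 1. The same gene was the 1 of 45 in the homeobox list. Among 28 visceral and depot factors the 1 with members was Wt1.

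Of 29 glucocorticoid response genes, 2 had members (6.90%), and both encode 11β-hydroxysteroid dehydrogenases, which interconvert active and inactive glucocorticoid. Hsd11b1, which regenerates active hormone, had 1 member of 2035 bp at 193261055 to 193263090 of chromosome 1, in a run of 4 whose other 3 peaks were at Lamb3. It also had 1 CD137 peak. Hsd11b2, which inactivates the hormone, had 1 member of 2192 bp at 105514358 to 105516550 of chromosome 8, 3.29 kb from the gene, and no CD137 peak. Its run spanned 57.1 kb, with the other members in introns of Zdhhc1 and Atp6v0d1.

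In the TGF-beta, BMP and GDF list 2 of 41 genes had members. Tgfbr1, the type I TGF-beta receptor gene, had 1 intronic member at 47379691 to 47381195 of chromosome 4 and 1 CD137 peak. It closed a run of 4 that began with 2 peaks at Col15a1, a basement membrane collagen gene. Bmp1, a protease that matures procollagen, had 2 members and no CD137 peak. In the Wnt list 2 of 43 had members, both without a CD137 peak. Rspo1 had 1 of 2991 bp over its start (124984650 to 124987641 of chromosome 4) and Wnt4, a Wnt ligand gene, 1 of 2346 bp in an intron. Of 40 extracellular matrix genes 2 had members, Col15a1 with 2 and the laminin chain gene Lamb1 with 2, which had no CD137 peak. Counted over whole lists, Wnt genes had 21 PDGFRα and 37 CD137 peaks, TGF-beta, BMP and GDF genes 25 and 30, and matrix genes 32 and 40. Glucocorticoid response genes had 10 and 16, and genes of the homeobox list 25 and 43. These totals stand beside 8002 PDGFRα and 14483 CD137 peaks in the deposited lists.

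Markers of other cell types were counted in the same way. The 21 endothelial genes gave 1, the lymphatic VEGF receptor gene Flt4, with 2 members and no CD137 peak. The 17 mesothelial genes gave 2, Wt1 and Rspo1, and the 24 immune genes gave 1, the fractalkine receptor gene Cx3cr1, with 1 member whose centre was 3.12 kb from the gene. Over the whole lists, endothelial genes had 11 PDGFRα and 11 CD137 peaks, mesothelial genes 8 and 5, immune genes 5 and 2, and mural genes 6 and 4. Stromal progenitor genes had 8 and 9, adipocyte genes 16 and 28, thermogenic and beige genes 10 and 28, and neuronal and glial genes 64 and 75. The deposited lists themselves hold 8002 PDGFRα and 14483 CD137 peaks. Some defining markers, Pecam1, Cdh5, Ptprc and Msln, were at 0 in both lists. Other markers had PDGFRα peaks outside the runs and no CD137 peak, namely Kdr with 2, Erg with 3 and Flt1 with 1 in the endothelial list, and Spi1, Coro1a, Laptm5 and Lyz2 with 1 each in the immune list. The part of other cell types in the runs was not tested. The 22 neuronal and glial genes gave 4 (18.2%), namely Celf4, Kcnma1, the splicing factor gene Rbfox1 (3 members, 9 PDGFRα and 3 CD137 peaks) and Ctnnd2, a δ-catenin gene (3, 7 and 5). These 4 genes were 277 to 1528 kb long, and the part of gene length in this count was not tested.

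Further groups of related genes were seen in the runs and were picked after their values were known, so they are given as descriptions with no count of how many such genes were not in runs. Among genes of adhesion and matrix, Itga11, a collagen receptor of fibroblasts, had 3 members and 2 CD137 peaks, the integrin gene Itga9 had 2 and 2, and Lamb3 had 3 members and no CD137 peak. Adamts9, a matrix protease gene, had 3 members and no CD137 peak, and Adam19 had 3 and 1. Of further laminin genes, Lama1 had 1 member and 1 CD137 peak, and Lama2, Lama4 and Lamc1 had 0 members. Of 3 genes known from calcium release in muscle, Jph2, which ties the cell membrane to the calcium store, had 3 members, the release channel gene Ryr1 had 3, and the calcium-binding calsequestrin gene Casq2 had 2. In each of these 3 genes 1 member covered the start, and they had 1, 2 and 1 CD137 peaks.

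Some runs held chemokine genes. Cx3cl1, the ligand of CX3CR1, and Ccl17 shared a run on chromosome 8, and Cx3cr1 and Ccr8, chemokine receptor genes, shared one on chromosome 9, each of these 4 genes with 1 member and no CD137 peak. Other chemokine genes lay within the span of a run with no member within 5 kb: Ccl22 in the first of these, and Ccl19 and Ccl21a in a run on chromosome 4. Aldh1a3, which makes retinoic acid, had 2 members and no CD137 peak. The coagulation inhibitor gene Tfpi had 3 members and no CD137 peak, 1 of them over its start. Scd2, a fatty acid desaturase gene, had 2 exonic members and no CD137 peak. The chromatin remodeller gene Smarca4 had 3 members and no CD137 peak, whereas Gli2, a Hedgehog effector, had 3 and 3, and the oestrogen receptor gene Esr1 had 3 members and 5 CD137 peaks.

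Motifs in the 250 bases before the start were compared, with 1 promoter per gene and both strands read. The E-box CAGCTG was in 6 of 23 member-covered promoters (26.1%), 16.0% of 288 covered by other PDGFRα peaks and 11.7% of all 17492. The EBF motif, TCCC and GGGA with 2 bases between, was in 2 (8.70%), at Lpar3 and Gipc3, against 1.74% and 0.812%. GGGCGG, bound by SP1, was in 12 (52.2%) against 50.7% and 42.3%, and GGAATG, bound by TEAD factors, in 3 of 23 against 12.8% and 11.6%. AGAACA, an arm of the glucocorticoid receptor site, was in 0 of 23 (12.5% and 14.0%), and the NFI motif, TTGGC and GCCAA with 5 bases between, in 0 as well (0% and 0.0343%). Of the others, TGANTCA of AP-1 was in 1 (6.21% of all promoters), TTGCNNAA of C/EBP in 2 (9.11%), AGATAA of GATA factors in 2 (9.03%), CCGGAAG of ETS factors in 1 (9.24%), CCAAT in 4 (36.2%) and TATAAA in 2 (12.3%). With 23 promoters a count of 1 is a share of 4.35%. No match says only that the letters are not in this window. Promoters under a member had a median GC content of 60.4% and 7 CpG dinucleotides, those under other PDGFRα peaks 60% and 11, and all promoters 55.2% and 9.

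Runs were found on every chromosome but Y, which had 4 PDGFRα peaks. On chromosome 12, 16.7% of PDGFRα peaks were run members (Wilson 95% interval 13.2 to 20.8%), in 17 runs, and chromosome 4 had the most runs, 21 (14.3%, 11.5 to 17.7%). On the X chromosome 6 of 185 peaks were members (3.24%, 1.49 to 6.89%), in 2 runs, at Tbl1x and Sh3bgrl. Chromosomes 7 and 14 had 6.73% (4.73 to 9.50%) and 6.32% (4.21 to 9.39%). The part of the density of CD137 peaks on each chromosome in these shares was not tested.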

How the data were processed

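Open chromatin was measured by ATAC-seq in 2 libraries, 1 per group. Per the file headers, the deposited lists give the position of each peak, 1 Ensembl ID and 1 class of place; heights and scores were not used here. The submitters' processing notes name CASAVA 1.8 and mm10, with no role for either. The peak caller and what made a peak unique are not named in any label or header used here. Coordinates are printed as in the lists.

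Runs were found as described in the report. Genes came from RefSeq GRCm38.p6 (mm10): a peak was given to every protein-coding gene holding its centre, or else to the nearest within 5 kb. Starts, promoters and miRNAs came from RefSeq tables of that build; no promoter entry for chromosome 18 was used. With 1 library per group no test was run; Wilson and Newcombe 95% intervals and order-statistic intervals of medians cover counting error only. Run finding was tested on simulated data. Named genes were those of the first 12 runs, ranked by number of members and then by shorter span. Also named were genes with 4 or more members, genes of the 16 lists with a member, and the most isolated and densest runs. Genes with clone names or numbers were skipped. Further genes were named after their values were seen, as the report says for the groups of related genes, widths and promoters, and for X-linked genes. One listed name, Cd29, was not matched. The members and lists were chosen with earlier results of these data known. Tools were matplotlib 3.10.9, scipy 1.17.1, pandas 2.3.3 and numpy 2.4.6 under Python 3.11.15.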

Additional observations from a re-analysis of the deposited data

How the results depend on the processing

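No paired analysis was possible because each group is a single library, so no library could be left out in turn. Depth is unknown. Covered starts were examined, and all their alternatives chosen, after the data were seen, as were the per-run and mixed-cluster settings for members at genes. Of 86 alternatives 66 stayed within the interval of the reported value or, for counts, within 1.5 times. The 270 runs and 894 members became 101 and 322 with a gap of 25 kb, 508 and 1767 with 100 kb, 1239 and 2832 for runs of 2 or more, 58 and 258 for runs of 4 or more, and 68 and 217 for peaks above the median width of each list. The differences that follow are members minus other PDGFRα peaks in percentage points. With a gap of 25 kb the up5k difference was 1.42. For runs of 4 or more, introns differed by 8.94, up5k by -3.02 and covered starts by -2.89. Above the median width the intergenic difference reversed to 3.69, exons differed by -1.35, up5k by -3.39, down5k by -3.12, members at a protein-coding gene by -5.59 and covered starts by -3.74; the cause was not tested. The reported difference for members at a gene, 3.32, has an interval that includes 0 (-0.112 to 6.67). With genes extended by 1 kb instead of 5 kb it was 3.94 (0.471 to 7.35), and by 50 kb 5.47 (2.80 to 7.87). With a gap of 100 kb between peaks it was 5.01 (2.41 to 7.56). At every other setting that has an interval, the interval included 0.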
